A study of Mus musculus with 9 samples.

Results

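The HD-het line was set against the control line, gene by gene, in ribosome footprints of immortalized mouse striatal cells. Members were all rows of the deposited count table with at least 10 counts in 3 or more of the 6 libraries of these lines, which left 12438 genes of 36410 rows. Of these, 12000 reached the minimum in both lines, 293 only in HD-het libraries and 145 only in control libraries, and 20075 rows had no count in any of the 6 libraries. In the control line (STHdhQ7/Q7, strain C57/BL6) both Htt alleles code for 7 glutamines. In the HD-het line (STHdhQ7/Q111) 1 allele codes for 7 and the other for 111. Both lines were immortalized, both were treated for 10 min with cycloheximide, an elongation inhibitor that holds ribosomes in place, and each gave 3 libraries of 26 to 32 nt fragments from the 80S monosome. Each genotype is a single cell line, so the mutant allele and any other difference between the lines cannot be told apart, and the labels do not say that the 3 libraries of a line came from separate cultures, so p-values measure the spread between these libraries.

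Huntingtin is a large scaffold protein of vesicle transport, autophagy and transcription, and an expanded CAG run in the first exon of its gene causes Huntington disease, which destroys the medium spiny neurons of the striatum. Striatal precursor lines divide in culture and are used to study this allele outside the brain. A ribosome footprint is the stretch of mRNA that 1 ribosome shields from nuclease, so the number of footprints on a gene follows both how much of its mRNA there is and how densely ribosomes occupy it. No mRNA libraries were used here, and footprints are relative to the other genes of a library, so a higher value is a larger share of the cell's ribosomes. The run that differs between the alleles is shown as the mouse reference has it, at chr5:34761958-34761987 of GRCm38.p6 on the + strand, in the first coding exon of Htt, with the 7 glutamine codons in capitals.
Htt glutamine run: CAGCAGCAACAGCAGCAGCAGccaccgccg

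Htt itself (chr5:34761721-34912534), the gene that carries the mutation, had 28.1, 29.9 and 28 CPM in the control libraries and 19.4, 20.6 and 20.9 CPM in the HD-het libraries. Every HD-het library lay below every control library, and the log2 fold change was -0.50 (SE 0.11) with an adjusted p of 0.00167 in edgeR's quasi-likelihood test. With offsets that take out the trend of fold change with coding length and GC content, it was -0.91, Htt having a very long coding sequence. Footprints of both alleles were counted together, so this value does not separate the 7-glutamine from the 111-glutamine mRNA.

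Footprints differed at 7530 of the 12438 genes at an adjusted p-value under 0.05, or 60.5%, with 3879 genes higher in HD-het (31.2%) and 3651 lower (29.4%). A gene list with counts near these shares does not stand out from all genes. The CPM values (counts per 1000000 of a library's TMM-scaled total) of the 3 HD-het and the 3 control libraries did not overlap at 71.6% of genes. The middle of the distribution hardly moved, with a median log2 fold change of 0.02 and quartiles of -0.40 and 0.52. Large changes were mostly rises. A change of 4-fold or more was reached by 673 genes that rose and 223 that fell, and one of 8-fold or more by 339 and 114, whereas a change under 1.5-fold was found at 1135 and 1670. These counts include genes that passed the minimum through 1 line only, 293 through HD-het and 145 through control, which had to differ. The excess of large rises without those genes was not counted. Falls were more often shallow and of abundant genes: a mean of 20 CPM or more in the higher line was reached by 2490 lower but 1856 higher genes. The libraries held between 22781306 and 41888701 counts, and the 10 most abundant rows took 7.11% to 7.53% of a control library and 10.1% to 11.3% of an HD-het library. In such bulk libraries a different number of cells of a type and a different amount of RNA per cell cannot be told apart.

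**Figure D1:**
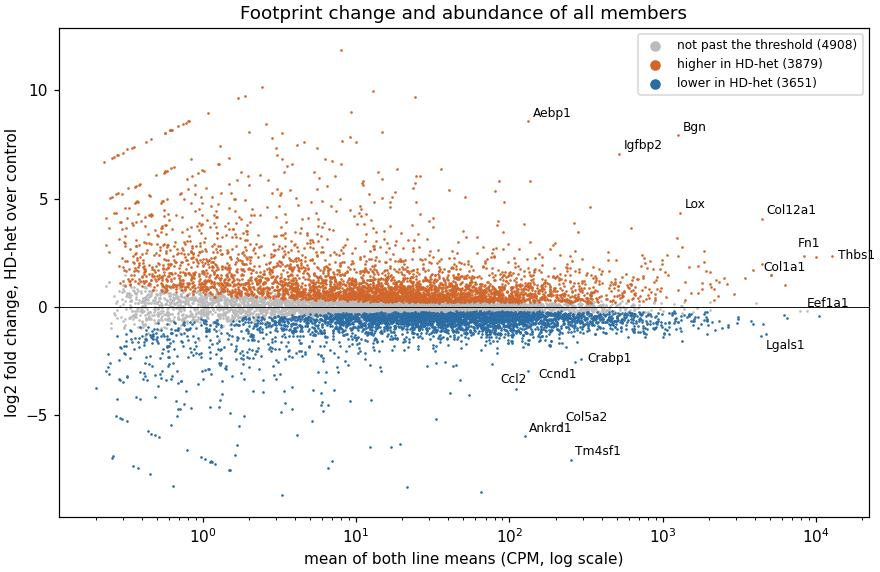
Log2 fold change of HD-het over control (vertical axis) against the mean of the 2 line means in CPM (log scale), 1 point per gene, coloured by edgeR's call at an adjusted p under 0.05. Rises of 4-fold and more outnumber falls of that size, 673 against 223, and named genes are labelled. These counts include genes that passed the count minimum through 1 line only.

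Among 25 measured genes known to bind huntingtin, 7 rose and 9 fell, shares close to those of all genes. With the length and GC offsets 3 rose. Optn, the autophagy receptor optineurin, rose from 15.5 to 34.7 CPM, and Dctn1, a dynactin subunit of the retrograde motor, rose from 87.2 to 119.7 CPM. Trip10, a membrane-curving adaptor also called CIP4, fell from 52.4 to 33.8 CPM.

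Genes of the extracellular matrix mostly rose. The matrix is the protein meshwork that cells secrete around themselves. Collagens form its fibres and basement membranes, matricellular and elastic fibre proteins tie them together, proteoglycans fill the space with sulfated sugar chains, and integrins anchor cells to them. Of 28 collagen genes measured, 25 rose and 2 fell, with a median log2 fold change of 2.10. Of 38 matricellular and elastic fibre genes 30 rose and none fell (median 1.92), and of 23 proteoglycan genes 21 rose and none fell (median 1.72). Of 30 integrin and laminin genes 25 rose and 1 fell (median 1.76). A few members had entered only through their HD-het counts, 1 collagen, 3 matricellular and 5 integrin or laminin genes, and where 10 counts were required in each of the 6 libraries, 20 of 23 collagen and 23 of 29 matricellular genes rose.

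The fibril-forming chain Col1a1 (chr11:94936224-94953042) had 3574, 4154 and 2273 CPM in the control libraries and 14684, 16915 and 17845 CPM in the HD-het libraries. Its lowest HD-het library was far above its highest control library, with a log2 fold change of 2.31 (SE 0.19) and an adjusted p of 2.51e-06 (edgeR). Col12a1, which coats collagen fibrils and bridges them to other matrix proteins, had 555, 629 and 292 CPM in control and 6779, 7876 and 10388 CPM in HD-het, a 17.0-fold rise (log2 4.08, SE 0.30, adjusted p = 1.13e-06, edgeR). Col6a3, a chain of the beaded filaments around cells, rose from 33.5 to 497 CPM, Col5a1, a chain that sets fibril diameter, from 243 to 2221 CPM, and Col14a1, another fibril-associated collagen, from 0.428 to 36.6 CPM.

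The collagen list held a sharp exception. Col5a2 (chr1:45374331-45503282), the partner chain of Col5a1 in type V collagen, had 445, 521 and 293 CPM in the control libraries and 11.0, 7.79 and 10.2 CPM in the HD-het libraries. The groups were far apart in the opposite direction, with a log2 fold change of -5.45 (SE 0.24) and an adjusted p of 3.19e-08 by edgeR. The mean was 1306 CPM in the HD-homo line (STHdhQ111/Q111), whose alleles both carry the expansion. Col18a1, the precursor of endostatin, fell from 306 to 114 CPM.

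Bgn (chrX:73483601-73495936), the small leucine-rich proteoglycan biglycan, had 10.6, 9.58 and 10.8 CPM in the control libraries and 2379, 2363 and 2822 CPM in the HD-het libraries. No 2 libraries of different lines came near each other, and the rise was 244-fold (log2 7.93, SE 0.24, adjusted p = 2.11e-09, edgeR). Its relatives rose too, Podn (podocan) from 0.363 to 27.5 CPM and Fmod (fibromodulin) from 3.03 to 43.3 CPM. The enzymes that build and trim the sugar chains were examined as a list chosen after values had been seen: of 35 genes of heparan and chondroitin sulfate synthesis 24 rose and none fell, among them Chsy3, a chondroitin synthase, from 0.414 to 21.6 CPM, and Sulf1, an extracellular sulfatase that removes sulfate from heparan, from 0.0932 to 29.4 CPM. Of the 35, 1 had passed the count minimum only through HD-het libraries. In a control library 3 counts made 0.0712 to 0.114 CPM, so the size of the rise of Sulf1 is uncertain.

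Among the matricellular proteins, Thbs1 (thrombospondin 1, chr2:118111876-118127133), an activator of latent TGF-beta, had 4694, 4766 and 2896 CPM in the control libraries and 19961, 18878 and 24884 CPM in the HD-het libraries. It was the most abundant row of every HD-het library and its 2 groups did not overlap (log2 2.37, SE 0.21, adjusted p = 4.24e-06, edgeR). Fn1, fibronectin, had 3019, 3419 and 1709 CPM in control and 11617, 11535 and 18980.3 CPM in HD-het, again without overlap (log2 2.37, SE 0.29, adjusted p = 3.75e-05, edgeR). Sparc, a collagen-binding glycoprotein, rose from 1940.1 to 4927 CPM and Ctgf, the growth factor CCN2, from 1796 to 7082 CPM. Nid2, a basement membrane linker, rose from 4.64 to 267 CPM, Fbln1, a fibulin, from 0.374 to 21.7 CPM, and Mfap4, a microfibril-associated protein, from 0.0822 to 6.67 CPM.

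The receptors of the matrix moved with it. Itgb1, the beta subunit shared by most matrix integrins, had 2988, 3052 and 1986 CPM in control and 6790.0, 7209.6 and 8271 CPM in HD-het, and the groups did not overlap (log2 1.47, SE 0.18, adjusted p = 3.28e-05, edgeR). Its alpha partners Itga1, which binds collagen, and Itga8, which binds nephronectin and fibronectin, rose from 2.83 to 99.9 CPM and from 0.0568 to 11.1 CPM. Lama4, a laminin chain of vessel and muscle basement membranes, rose from 0.0851 to 19.7 CPM. Control means of Itga8 and Lama4 were about 3 counts per library or fewer, so the sizes of their rises are uncertain. Control values were spread unevenly in many of these genes: control replicate 3 was the lowest control library for Col1a1, Col12a1, Fn1, Thbs1 and Itgb1, and the matricellular genes took between 1.09% and 1.86% of the counts of a control library against 5.35% to 7.23% of an HD-het library.

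Enzymes that make and remodel collagen rose as well. Of 24 collagen-modifying genes 21 rose and 2 fell. Lox, the lysyl oxidase that crosslinks collagen and elastin, had 138, 153 and 67.3 CPM in the control libraries and 2485, 2255 and 2633 CPM in the HD-het libraries. The HD-het libraries were close to each other and all above control (log2 4.36, SE 0.33, adjusted p = 1.22e-06, edgeR). Adamts2, the procollagen N-proteinase, rose from 0.622 to 14.1 CPM, Loxl1, which crosslinks elastin, from 25.8 to 133 CPM, while its relative Loxl4 fell from 53.2 to 20.2 CPM and Pcolce2, an enhancer of procollagen cleavage, from 47.1 to 28.1 CPM. Of 36 metalloproteases and their inhibitors 30 rose and 3 fell, and with 10 counts required in each of the 6 libraries 25 of 30 rose and 2 fell. Adam19, a membrane-bound sheddase, rose from 2.24 to 30.9 CPM, Mmp19, a secreted matrix metalloprotease, from 1.44 to 21.2 CPM and the protease-like Adamtsl1 from 1.6 to 47.7 CPM, whereas the proteoglycan-cleaving Adamts1 and Adamts5 fell from 30.4 to 10.9 CPM and from 7.36 to 3.47 CPM.

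**Figure D2:**
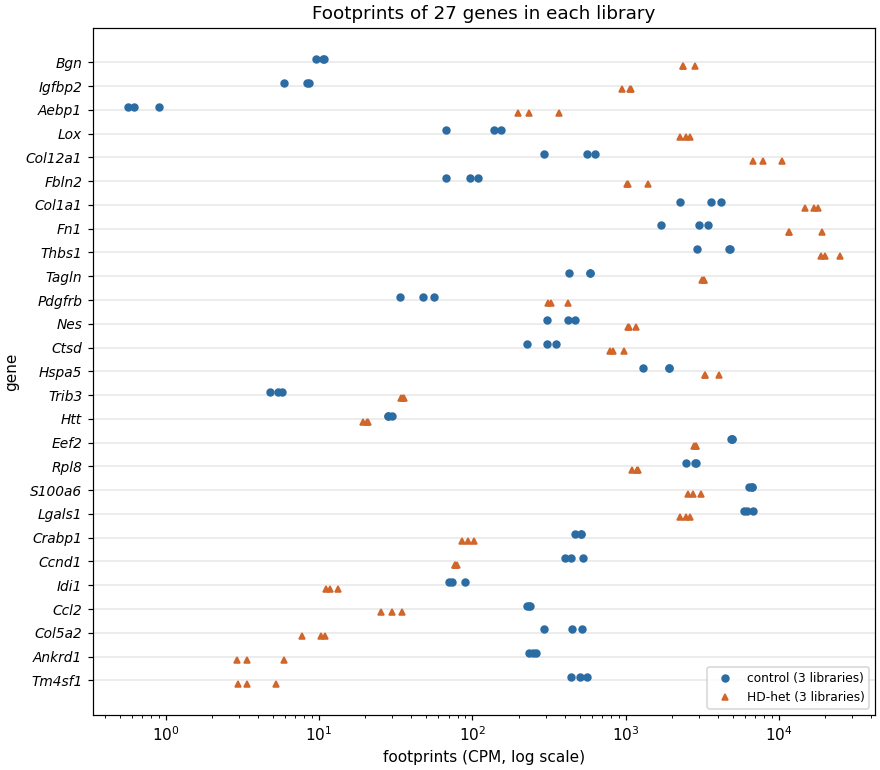
Footprints of 27 genes in CPM (log scale), 1 circle for each of 3 control libraries and 1 triangle for each of 3 HD-het libraries. The 2 lines do not overlap in any gene shown, with Bgn at the top of the rises and Tm4sf1 at the foot of the falls. Many of these genes were picked for large changes and lack of overlap.

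Among the 30 largest rises by fold were further genes of secreted and membrane proteins. Igfbp2, which binds insulin-like growth factors outside the cell, had 8.34, 8.54 and 5.89 CPM in the control libraries and 1075, 943 and 1073 CPM in the HD-het libraries. All 3 HD-het values lay more than 100 times above the control values (log2 7.08, SE 0.20, adjusted p = 9.71e-10, edgeR). Pappa, the protease that cleaves IGF-binding proteins, rose from 1.82 to 79.3 CPM. Among 18 genes of the IGF axis 9 rose and 5 fell (3 when HD-het replicate 2 or control replicate 3 was left out). With 10 counts required in each of the 6 libraries, 9 of 16 rose and 3 fell. Aebp1, a collagen-binding carboxypeptidase-like protein, had 0.571, 0.617 and 0.900 CPM in control and 232, 198 and 365 CPM in HD-het (log2 8.58, SE 0.34, adjusted p = 1.52e-08, edgeR), although its annotation overlaps Pold2 and the use of strand in counting is not given in the sources used here. Mme, the peptidase neprilysin, rose from 0.852 to 70.2 CPM. Apoe, the lipid carrier apolipoprotein E, rose from 0.471 to 28.9 CPM. Serpine2, a protease inhibitor of the brain, rose from 2.99 to 169 CPM, and Tnfrsf11b, the decoy receptor osteoprotegerin, from 6.06 to 179 CPM. Erfe, the hormone erythroferrone, rose from 0.774 to 51.7 CPM, and the same locus was counted a further time under its older name Fam132b. Proteins of excitable cells were found in the same ranks. Gria3, an AMPA-type glutamate receptor subunit, rose from 1.01 to 45.9 CPM and Kcnab1, a potassium channel beta subunit, from 0.914 to 47.5 CPM. Slc8a1, a sodium-calcium exchanger, rose from 0.843 to 25.3 CPM and Ano1, a calcium-activated chloride channel, from 0.973 to 33.3 CPM. Of 25 ion channel genes measured 15 rose and 5 fell, and with 10 counts required in each of the 6 libraries 9 of 18 rose.

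Genes of the secretory route rose by smaller factors. Endoplasmic reticulum chaperones fold secreted and membrane proteins, and 24 of 29 rose, with a median of 0.77. Hspa5 (BiP), the main HSP70 of this compartment, had 1921, 1901 and 1291 CPM in the control libraries and 3295, 3293 and 4056 CPM in the HD-het libraries, and the groups did not overlap (log2 1.06, SE 0.16, adjusted p = 2.12e-04, edgeR). Sel1l, an adaptor that hands misfolded proteins to degradation, rose from 68.5 to 169 CPM, Dnajb9, a BiP cochaperone, from 10.0 to 23.7 CPM and Edem1, which recognizes trimmed mannose on misfolded proteins, from 14.6 to 32.6 CPM. The member that fell, Hspa1b, is a cytosolic HSP70 and not a protein of this compartment (72.7 to 32.2 CPM), and its counts are nearly those of its near-identical copy Hspa1a. In lists chosen after values had been seen, 23 of 36 genes of transport from the endoplasmic reticulum to the Golgi rose and 2 fell, and 18 of 30 genes of the translocon and of signal peptide processing rose and 4 fell. Tmed3, a p24 cargo receptor, rose from 20.4 to 69.8 CPM, Lman1, a lectin that carries glycoproteins out, from 188 to 409 CPM and Rrbp1, which binds ribosomes to the membrane, from 167 to 462 CPM. Glycan-processing enzymes of the Golgi went the same way, with 22 of 32 higher and 1 lower, including the sialyltransferases St6gal1 (1.51 to 7.71 CPM) and St3gal5 (38.9 to 115 CPM).

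Lysosomes degrade what reaches them by endocytosis and autophagy, and their genes rose almost without exception. Of 39 measured hydrolases and membrane proteins 38 rose and none fell, with a median of 1.22. Ctsd, the protease cathepsin D, had 307, 349 and 226 CPM in the control libraries and 784, 831 and 970.2 CPM in the HD-het libraries, and its HD-het libraries lay well above control (log2 1.55, SE 0.16, adjusted p = 1.11e-05, edgeR). Manba, a mannosidase, rose from 3.63 to 25 CPM, and the proteases Ctsf and Ctso rose from 2.91 to 23.9 CPM and from 0.580 to 5.90 CPM. The remaining member, the peptidase Ctsz, had 91.3, 94.1 and 59.0 CPM in control and 92.3, 93.7 and 120.3 CPM in HD-het and did not pass the test (log2 0.32, SE 0.22). The vacuolar ATPase that acidifies this compartment rose at 11 of 16 subunits and fell at 3, again a list chosen after values had been seen. Of 41 autophagy genes 17 rose and 6 fell (3 without control replicate 3), with a median of 0.20.

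The CLEAR core, the letters TCACGTGA, is known to be bound by the lysosomal factor TFEB. Searched on both strands in RefSeq promoter windows of 300 bases, 250 before to 50 after a start, it was found in 4 of 33 windows of the lysosomal genes (12.1%), in 1.85% of the 12540 windows of member genes and in 0.974% of all 32851 windows. The motif was added after values had been seen, and a match describes letters and not binding. The windows are shown because their genes rose together, 5′ to 3′ on the gene's strand in GRCm38.p6, with the core in capitals, for Ctsd (chr7:142387911-142387934, - strand), Mcoln1 (chr8:3500465-3500488, + strand) and Gla (chrX:134601218-134601241, - strand). Ctsd was described above, Mcoln1 encodes a calcium channel of the lysosomal membrane (19.5 to 31.7 CPM) and Gla alpha-galactosidase A (18.7 to 41.6 CPM), and each rose.
Ctsd CLEAR window: cccgcgtcTCACGTGAcccgttga
Mcoln1 CLEAR window: cgccccgcTCACGTGAccgcggcg
Gla CLEAR window: gcgattgaTCACGTGAgcatctac

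ATF4 is the transcription factor that cells translate when initiation is slowed by stress, and its targets import and make amino acids. Of 43 targets measured 28 rose and 9 fell, with a median of 0.74. Trib3, a pseudokinase that feeds back on ATF4, had 5.71, 5.36 and 4.76 CPM in the control libraries and 35.4, 34.1 and 35.8 CPM in the HD-het libraries. The 3 HD-het libraries lay close together above all controls (log2 2.73, SE 0.21, adjusted p = 1.46e-06, edgeR). Atf5, a related factor, rose from 4.53 to 22.4 CPM and Slc7a11, the cystine importer, from 5.96 to 25.3 CPM, and Chac1, which breaks down glutathione, from 5.93 to 20.1 CPM. Not all targets went that way: the glutamine importer Slc1a5 fell from 45.3 to 18 CPM, the mTORC1 inhibitor Ddit4 from 47.9 to 22.6 CPM and the mitochondrial serine enzyme Shmt2 from 286 to 169.6 CPM. Cytosolic tRNA synthetases, which this factor also regulates, were divided, with 9 of 21 higher, such as Nars (464 to 768 CPM), and 8 lower, such as Kars (503 to 267 CPM).

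The C/EBP-ATF composite element, searched as TGATGNAA on both strands, was found in 12 of 46 promoter windows of the ATF4 targets (26.1%), in 2.22% of those of member genes and in 3.97% of all windows. The windows are shown for targets that rose, with the element of either strand in capitals, for Trib3 (chr2:152344031-152344054, - strand), Chac1 (chr2:119351041-119351064, + strand), Slc7a11 (chr3:50443664-50443687, - strand) and Slc1a4 (chr11:20332702-20332725, - strand). Slc1a4 is a neutral amino acid transporter, with 23.5 to 68.6 CPM.
Trib3 element window: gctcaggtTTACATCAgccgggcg
Chac1 element window: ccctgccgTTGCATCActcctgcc
Slc7a11 element window: catgtggcTGATGCAAacctggag
Slc1a4 element window: ctcctgcgTTGCATCAtctccagc

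The contractile apparatus rose in part. Smooth muscle actin, calponin, transgelin and tropomyosin form the stress fibres of contractile cells, and 24 of 33 measured contractile genes rose while 1 fell, with a median of 0.54. Tagln, the actin bundler transgelin, had 586, 586 and 428 CPM in the control libraries and 3218, 3260.4 and 3136 CPM in the HD-het libraries, with the HD-het libraries nearly equal (log2 2.59, SE 0.26, adjusted p = 8.59e-06, edgeR). Cnn1, calponin, had 4.19, 4.44 and 5.21 CPM in control and 68.5, 68.8 and 39.9 CPM in HD-het, and Acta2, smooth muscle actin, had 4116, 4357 and 3793 CPM in control and 9296, 8574 and 7234 CPM in HD-het. Both were without overlap, with log2 fold changes of 3.68 (SE 0.21) and 1.03 (SE 0.19). Mylk, the kinase that switches on myosin, rose from 1.09 to 9.15 CPM, and Tpm1, a tropomyosin, from 2687 to 7542 CPM, whereas Smtn, smoothelin, fell from 107 to 67.7 CPM. The CArG box, the site of serum response factor, searched on both strands, was found in 21.2% of 33 promoter windows of the list against 1.45% of those of member genes and 1.63% of all windows.

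Targets of YAP and TEAD, the coactivator and factors that read cell stretch, split. Of 24 measured 14 rose and 5 fell. F3, tissue factor, rose from 336 to 2330.1 CPM, Ctgf was described above, and Nt5e, an ectonucleotidase, rose from 1.02 to 7.23 CPM. Ankrd1 (chr19:36111965-36119844), a muscle ankyrin repeat protein and a standard reporter of this pathway, had 261, 247 and 234 CPM in the control libraries and 3.41, 2.91 and 5.94 CPM in the HD-het libraries. It fell 62.2-fold (log2 -5.96, SE 0.36, adjusted p = 2.48e-07, edgeR), opposite to Ctgf. Its mean in HD-homo cells was 258 CPM, near the control mean.

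Growth factor genes changed in both directions. In the TGF-beta and BMP axis 29 of 43 genes rose and 3 fell, among them the ligand Tgfb2 (26.2 to 132 CPM), the co-receptor Tgfbr3 (2.76 to 11.8 CPM) and the BMP antagonist Nbl1 (25.3 to 117 CPM). With 10 counts required in each of the 6 libraries, 26 of 39 rose and 3 fell. The antagonist Fst, follistatin, had 27.8, 26.6 and 20.4 CPM in control and 16.2, 13.0 and 19.2 CPM in HD-het, a fall with an adjusted p of 0.0314 in edgeR that was between 0.0675 and 0.118 without HD-het replicate 1 or 2 or control replicate 1 or 2. In the Wnt axis 22 of 41 rose and 7 fell. With 10 counts required in each of the 6 libraries, 16 of 31 rose and 5 fell, and the median was 0.49 in place of 0.63. The antagonist Sfrp4 had 0.0381, 0.0474 and 0.0375 CPM in control and 7.31, 7.81 and 9.48 CPM in HD-het, at least 82.6-fold higher in HD-het, since every control library held 3 counts or fewer, and Dkk3 was in the same way at least 65.4-fold higher. Fzd4, a receptor, rose from 0.963 to 10.2 CPM, while Notum, an enzyme that inactivates Wnts, fell from 7.69 to 2.16 CPM and the nuclear factor Tcf7l2 from 35.9 to 19.8 CPM. Among growth factors and their tyrosine kinases 25 of 51 rose and 8 fell, with the PDGF receptor Pdgfrb at 47.6, 56.3 and 33.5 CPM in control and 312, 324 and 423 CPM in HD-het and no overlap (log2 2.94, SE 0.26, adjusted p = 4.21e-06, edgeR). The EGF-family ligand Areg fell from 253 to 87.0 CPM and the ETS factor Etv4 from 22.1 to 7.42 CPM. Jag1, a Notch ligand, rose from 96.8 to 379 CPM. Bdnf, the trophic factor of striatal neurons, rose from 40.1 to 70.3 CPM and its sorting receptor Sort1 from 10.3 to 32.7 CPM, while Gdnf fell from 8.17 to 4.91 CPM.

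Genes of axon guidance and neural adhesion were examined next. Of 53 axon guidance genes 37 rose and 1 fell. Of these, 4 had passed the count minimum only through HD-het libraries, and with 10 counts required in each of the 6 libraries 30 of 44 rose and 1 fell. Robo1, the receptor of Slit proteins, had 0.0762, 0.0474 and 0 CPM in control and 6.37, 6.22 and 5.47 CPM in HD-het, with control at the floor and HD-het at least 60.6-fold above it, and the Eph receptors Ephb2 and Epha7 rose from 3.26 to 23.1 CPM and from 1.24 to 8.73 CPM. Among cadherins outside the clusters, Fat4, a giant protocadherin of tissue polarity, had 17.4, 20.2 and 11.3 CPM in control and 183, 223 and 291 CPM in HD-het (log2 3.82, SE 0.22, adjusted p = 2.20e-07, edgeR), and Cdh10 rose from 0.852 to 20.5 CPM, while Dchs1, the ligand of Fat4, fell from 16.4 to 7.23 CPM. The clustered protocadherins, which give neurons their surface identity and were listed after values had been seen, rose at 27 of 28 members and fell at 1, Pcdhgb5. Of these, 8 had passed the count minimum only through HD-het libraries, and all 11 with 10 counts in each of the 6 libraries rose. Genes of the alpha and gamma clusters share 3′ exons, so reads can be split among them. Pcdhb17, which has a single exon, rose from 0.767 to 17.4 CPM. Of 22 surface adhesion genes 16 rose and 6 fell, 3 of the 22 having passed the count minimum only through HD-het libraries and 2 only through control libraries. Among those that fell, Alcam, an immunoglobulin-type adhesion protein, had 110.1, 118 and 79.2 CPM in control and 3.68, 3.84 and 11.3 CPM in HD-het (log2 -4.08, SE 0.43, adjusted p = 1.25e-05, edgeR), and L1cam fell from 11.0 to 0.691 CPM.

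Innate immune genes changed in both directions. Of 35 interferon-stimulated genes measured 23 rose and 8 fell, and of the 25 with 10 counts in each of the 6 libraries 14 rose and 7 fell. Tap2, a peptide transporter of antigen presentation, rose from 1.08 to 8.43 CPM, B2m, the light chain of MHC class I, from 375 to 883 CPM and the factor Irf9 from 1.75 to 5.96 CPM, while the membrane restriction factors Ifitm3 and Ifitm1 fell from 97.3 to 44.3 CPM and from 13.6 to 7.50 CPM and the factor Irf1 from 16.1 to 10.5 CPM. With the length and GC offsets the log2 fold change of Ifitm1 was -0.41 in place of -0.86 (adjusted p = 0.0479, edgeR). Of 22 chemokines and cytokines 12 rose and 8 fell, and of the 17 with 10 counts in each of the 6 libraries 10 rose and 6 fell. Ccl2, a chemokine for monocytes, had 234, 236 and 226 CPM in the control libraries and 29.8, 34.8 and 25.1 CPM in the HD-het libraries. The lines did not overlap (log2 -2.95, SE 0.38, adjusted p = 5.41e-05, edgeR). Its HD-homo mean was 501 CPM. Ccl7 fell from 50.7 to 7.53 CPM, whereas Cx3cl1, fractalkine, rose from 80.6 to 415 CPM and the cytokine Lif from 3.85 to 32.5 CPM.

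**Figure D3:**
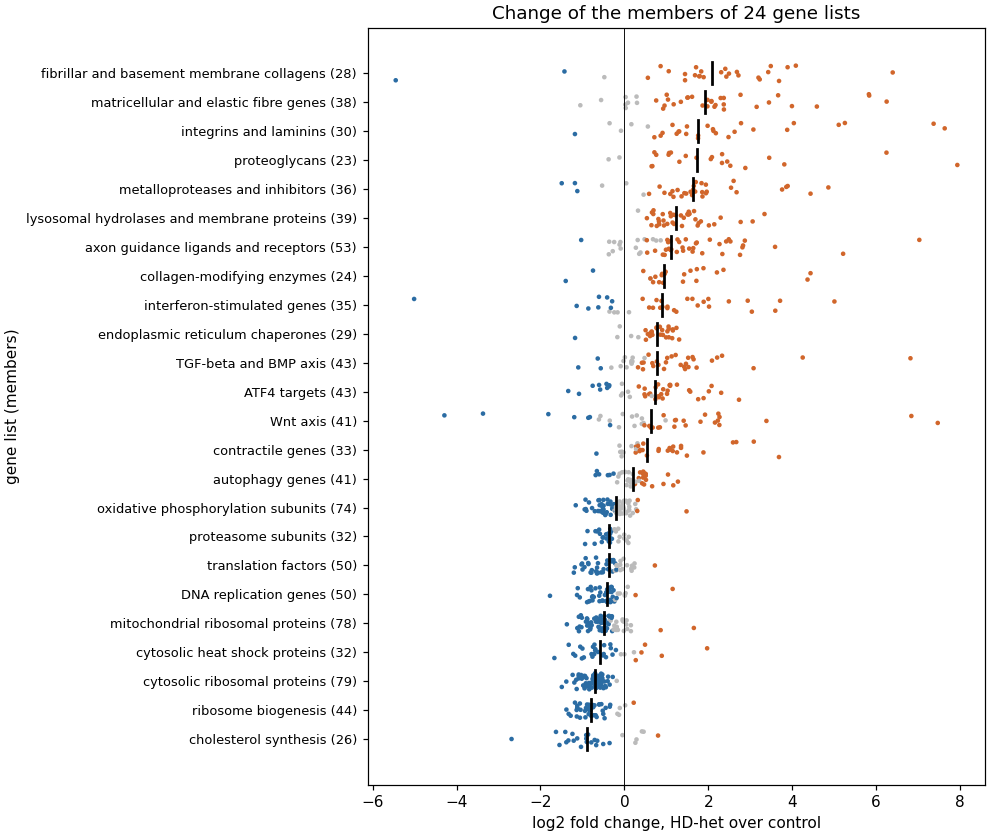
Log2 fold change of HD-het over control for every member of 24 gene lists, with the number of members in brackets, orange for higher, blue for lower and grey for genes not past edgeR's threshold; the black bar is the list's median. Medians run from 2.10 for collagens to -0.88 for cholesterol synthesis.

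Among the 30 largest falls by fold was Tm4sf1 (chr3:57285611-57387736), a tetraspanin-like membrane protein, which had 504, 555 and 437 CPM in the control libraries and 2.96, 3.40 and 5.24 CPM in the HD-het libraries. The fall was 131-fold (log2 -7.04, SE 0.29, adjusted p = 1.96e-08, edgeR). Cd82, a tetraspanin and p53 target, fell from 24.3 to 0.271 CPM, and Cavin3, a coat protein of caveolae, from 64.1 to 1.8 CPM. On the cytoskeleton, Nav3, a microtubule-binding navigator protein, fell from 38.4 to 0.503 CPM, Stmn2, a microtubule-destabilizing protein of growing axons, from 87.2 to 8.56 CPM, and Eps8, an actin capping protein, from 204 to 15.1 CPM. Rgs16, which ends G-protein signals, fell from 133 to 21.4 CPM, and Mt2, a metal-binding metallothionein, from 135 to 31.5 CPM. Crabp1, which carries retinoic acid in the cytosol, had 514, 464 and 508 CPM in control and 92.9, 85.0 and 102 CPM in HD-het (log2 -2.41, SE 0.09, adjusted p = 1.32e-08, edgeR), while the retinal reductase Dhrs3 was at least 70.7-fold higher and the retinoic acid synthase Aldh1a3 rose from 2.78 to 15.9 CPM.

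Patterning factors changed in both directions. Of 45 homeobox factors, Hox genes among them, 13 rose and 18 fell, 12 of the 45 having passed the count minimum only through control libraries, with a median of -0.14. Where 10 counts were required in each of the 6 libraries, 14 of 32 rose and 5 fell, and the median changed sign to 0.18. Of 41 FOX, SOX and T-box factors 14 rose and 10 fell, with a median of -0.03. Hox genes mark the position of a cell along the trunk and are not normally active in the forebrain, and all 16 that were members (chosen as a list after values had been seen) fell. Most were low: 13 of them had passed the count minimum only through control libraries and so had to differ, and only Hoxb6 to Hoxb9 reached a mean of 5 CPM in control. Hoxb9 had 24.3, 20.1 and 26.6 CPM in the control libraries and 1.40, 0.877 and 1.46 CPM in the HD-het libraries, so the groups were far apart (log2 -4.29, SE 0.27, adjusted p = 3.65e-07, edgeR), and Hoxb8 fell from 11.8 to 0.404 CPM and Hoxb7 from 6.56 to 0.313 CPM. Dlx2, a homeobox factor of striatal progenitors, fell from 9.23 to 2.10 CPM. Foxf1, a factor of mesenchyme, rose from 10.6 to 52.6 CPM, Irx3 from 4.27 to 13.2 CPM and Msx2 from 1.70 to 6.48 CPM, while Tbx20 and Tbx3 fell from 27.6 to 7.84 CPM and from 18.1 to 7.43 CPM.

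Most genes of protein synthesis fell. Of 79 cytosolic ribosomal protein genes 78 fell and none rose, with a median of -0.69, and together they took 8.11% ± 0.198 of the footprints in control and 4.65% ± 0.120 in HD-het (SD, n = 3 each). In HD-homo libraries the share was 9.40% ± 0.303 (SD, n = 3). Rpl8, a large subunit protein, had 2809, 2878 and 2483 CPM in the control libraries and 1201, 1090.4 and 1182 CPM in the HD-het libraries, and the lines did not overlap (log2 -1.23, SE 0.13, adjusted p = 1.01e-05, edgeR). Rps15 fell from 1110.4 to 425 CPM and Rpl23 from 64.6 to 23.0 CPM, the latter with an adjusted p of 0.0641 in edgeR without HD-het replicate 2 and of 0.0584 without control replicate 3. Rpl17, with 1.71, 1.71 and 2.03 CPM in control and 1.36, 1.56 and 1.89 CPM in HD-het, was the member that did not pass the test (log2 -0.18, SE 0.22). Of 50 translation factors 33 fell and 1 rose. Eef1a1, which brings tRNA to the ribosome, had 11976, 12192 and 11998 CPM in control and 8828, 9360.4 and 8715 CPM in HD-het (log2 -0.43, SE 0.08, adjusted p = 5.00e-04, edgeR), and Eef2, which moves the ribosome on, had 4826, 4911 and 4942 CPM in control and 2769.7, 2865 and 2869 CPM in HD-het (log2 -0.79, SE 0.07, adjusted p = 5.78e-06, edgeR). Both were tight within lines and without overlap. Eif5a, a factor for difficult peptide bonds, fell from 3221 to 1666 CPM, Eif3d and Eif3l, subunits of the initiation scaffold, from 583 to 253 CPM and from 686 to 302 CPM, and the repressor Eif4ebp2 from 20.5 to 10.1 CPM. The initiation scaffold Eif4g3 was the 1 factor that rose, from 60.9 to 101 CPM.

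Ribosomal protein mRNAs begin with a pyrimidine tract through which mTORC1 regulates them. The letters CTTTC, searched on the sense strand, were found in 69.1% of 68 promoter windows of these genes. They were in 31.5% of the windows of member genes and 34.8% of all windows. Most of a window lies before the start and outside the mRNA, so these shares do not count mRNAs that begin with the tract. The letters are shown in capitals close to the annotated start for genes that fell: Rps26 (chr10:128626485-128626508, - strand) and Rpl28 (chr7:4792958-4792981, + strand). Rps26 fell from 979 to 441 CPM and Rpl28 from 540.4 to 353 CPM.
Rps26 start window: ccggatcctCTTTCgagtcttggc
Rpl28 start window: cgtgtctctCTTTCcgtctccggc

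The factors that assemble ribosomes in the nucleolus fell as well, with 39 of 44 biogenesis genes lower, 1 higher and a median of -0.80. Dkc1, the pseudouridine synthase dyskerin, fell from 248 to 98.6 CPM, and Nop16 and Rrp12, assembly factors of the large and the small subunit, from 109 to 41.9 CPM and from 123 to 50.7 CPM. Cytosolic heat shock proteins fell at 24 of 32 genes and rose at 5 (3 when HD-het replicate 1, control replicate 1 or control replicate 3 was left out). Hsp90ab1, the constitutive HSP90, had 5893, 5504 and 5583 CPM in control and 3473, 3049 and 3338 CPM in HD-het (log2 -0.78, SE 0.08, adjusted p = 7.78e-06, edgeR), Cct5, a subunit of the chaperonin that folds actin and tubulin, fell from 1416 to 609 CPM, Hsph1, an HSP70 exchange factor, from 234 to 93.3 CPM, and the small heat shock protein Cryab from 158 to 49.6 CPM. Bag3 and Dnajb4, cochaperones of HSP70, rose from 65.7 to 92.4 CPM and from 72.9 to 135 CPM. Of 32 proteasome subunits 22 fell and none rose, for instance Psmb3 from 513 to 268 CPM.

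**Figure D4:**
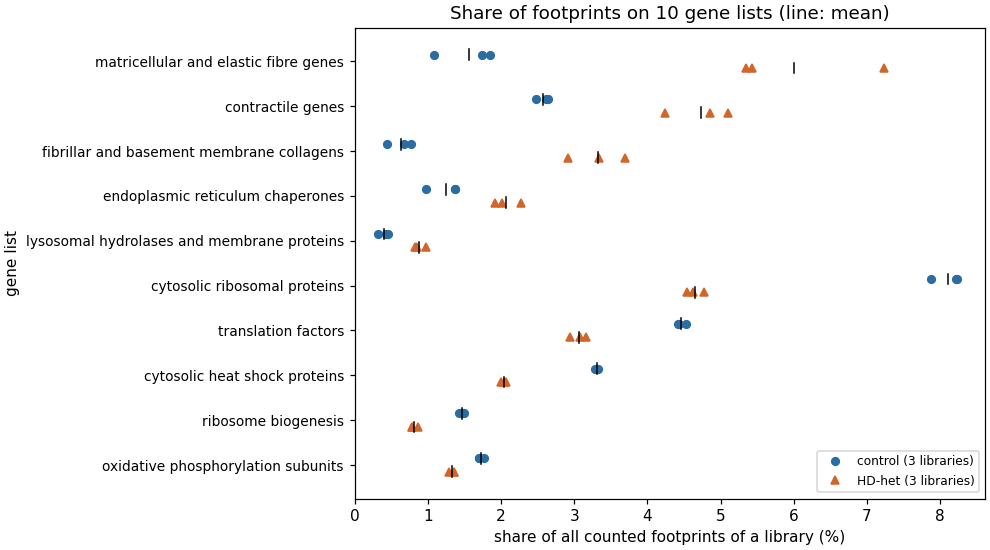
Share of all counted footprints of a library (percent, axis from 0) taken by 10 gene lists, 1 circle per control library and 1 triangle per HD-het library, with the mean as a line. Ribosomal proteins took 8.11% in control and 4.65% in HD-het, and matricellular genes 1.56% and 6.00%.

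Mitochondrial genes fell with them. Of 78 mitochondrial ribosomal protein genes 58 fell and 2 rose (median -0.49), with Mrps6 from 205 to 79.1 CPM and Mrpl11 from 75.5 to 34.7 CPM. Of 74 nuclear subunits of oxidative phosphorylation 35 fell and 3 rose (median -0.20), with, as examples on chromosome 15 (described below), Atp5g2, of the ATP synthase ring, from 347 to 155 CPM and Cox6c, of cytochrome oxidase, from 345 to 179 CPM. Many of these proteins are short, and short coding sequences as a whole were lower: the median log2 fold change was -0.18 in the fifth of genes with the shortest coding length and 0.18 in the fifth with the longest. With offsets that remove the trend in length and GC, 59 of the cytosolic ribosomal protein genes still fell (median -0.45), 47 of the mitochondrial ones fell and 9 rose (median -0.29), and the oxidative phosphorylation subunits no longer leaned down, with 20 lower, 27 higher and a median of 0.07. With them the log2 fold change was -0.38 for Cox6c, -0.61 for Eif5a and -0.28 for Rpl28, each still past the threshold. The part of length in these results was not tested further.

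Most genes of cholesterol synthesis fell. Of 26 genes of cholesterol synthesis and its regulation 20 fell and 1 rose, with a median of -0.88. Idi1, the isomerase that makes the second isoprene building block, had 73.5, 70.1 and 89.8 CPM in the control libraries and 11.1, 13.2 and 11.7 CPM in the HD-het libraries. The lines were far apart (log2 -2.69, SE 0.15, adjusted p = 1.77e-07, edgeR). Srebf2, the master factor of the pathway, fell from 155 to 53.1 CPM. The fatty acid enzymes Fasn, Acly and Elovl6 fell from 541 to 275 CPM, from 371 to 178 CPM and from 32.6 to 8.38 CPM, but of that list of 23 genes only 4 fell and 4 rose. In glycolysis and the pentose phosphate route 13 of 25 fell and 5 rose, Pgam1 from 1060.4 to 526 CPM and Ldha from 1049 to 611 CPM, whereas the lactate dehydrogenase Ldhb rose from 5.64 to 17.0 CPM. Of 33 genes of NRF2 and glutathione defence 14 fell and 10 rose: the quinone reductase Nqo1 fell from 149.7 to 62.4 CPM and the glutathione transferase Gsto1 from 365 to 103 CPM, while haem oxygenase Hmox1 rose from 52.8 to 159 CPM.

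The cell cycle list leaned lower in S phase. Of 50 DNA replication genes 41 fell and 2 rose (median -0.41), with the origin loader Cdc6 from 63.7 to 29.2 CPM and the primase Prim1 from 152 to 70.2 CPM. Replication-dependent histones, a list chosen after values had been seen, fell at 61 of 66 genes and rose at 1, and their share of all footprints was 1.40% ± 0.158 in control and 0.610% ± 0.0622 in HD-het (SD, n = 3 each). With the length and GC offsets 50 of them fell, with a median of -0.76 in place of -1.13. Histone paralogs are nearly identical in sequence, so counts of a single one such as Hist1h4b (288 to 82.8 CPM) are uncertain. Ccnd1 (chr7:144929931-144939831), the cyclin that carries growth signals into the cycle, had 436, 404 and 529 CPM in the control libraries and 79.8, 77.1 and 77.1 CPM in the HD-het libraries. The lines did not overlap (log2 -2.55, SE 0.16, adjusted p = 3.10e-07, edgeR). Its kinase partners Cdk4 and Cdk6 fell from 464 to 275 CPM and from 32.6 to 14.4 CPM, the inhibitors Cdkn1b (p27) and Cdkn2c (p18) rose from 46.1 to 80.5 CPM and from 3.07 to 8.08 CPM, and Myc fell from 356 to 167 CPM. In mitosis 22 of 51 genes fell, such as Cdk1 from 845 to 456 CPM, and 7 rose (4 without control replicate 1 or control replicate 3), among them Mki67, the Ki-67 antigen, from 154 to 344 CPM and Ccnb2, a mitotic cyclin, from 53.1 to 150.2 CPM. With the length and GC offsets the log2 fold change of Mki67 was 0.66 in place of 1.15.

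Among the 10 largest losses in CPM were Lgals1, S100a6 and Cfl1. Lgals1, the lectin galectin-1, had 6159, 5922 and 6716 CPM in control and 2481, 2249 and 2634 CPM in HD-het (log2 -1.35, SE 0.10, adjusted p = 1.53e-06, edgeR), and S100a6 had 6696, 6638 and 6405 CPM in control and 2757, 3086 and 2533 CPM in HD-het (log2 -1.24, SE 0.11, adjusted p = 3.24e-06, edgeR). In both, every HD-het library lay below the lowest control value. With the length and GC offsets described above, the log2 fold changes were smaller, -0.96 and -0.71. All 9 S100 genes that were members fell, a list chosen after values had been seen, with a median of -1.34 and of -0.85 with the length and GC offsets. Cfl1, cofilin, which severs actin, fell from 4613 to 2953 CPM.

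Both lines lacked most markers of the mature striatal neuron. Of 12 markers of medium spiny neurons 3 were members, and their sum ran from 9.49 to 18.6 CPM in control and from 5.67 to 9.13 CPM in HD-het. The dopamine receptor genes Drd1 and Drd2 had no count in any of the 6 libraries. Ppp1r1b (DARPP-32) had 13.6, 6.40 and 16.0 CPM in control and 6.37, 3.29 and 5.85 CPM in HD-het, which did not overlap (log2 -1.22, SE 0.47, adjusted p = 0.0398, edgeR). That call was lost when any of the 3 HD-het libraries, control replicate 1 or 3 or HD-homo replicate 3 was left out of the edgeR fit (adjusted p from 0.052 to 0.147), in DESeq2 (adjusted p = 0.0626) and with the length and GC offsets (adjusted p = 0.11, edgeR). Of 10 neural progenitor markers 7 were members, of which 4 rose and 2 fell. Nes, the intermediate filament nestin, had 423, 466 and 307 CPM in control and 1026, 1171 and 1054 CPM in HD-het. Fabp7, a fatty acid carrier of radial glia, rose from 1.12 to 22.2 CPM and Pax6 from 17.3 to 24.7 CPM. Sox2 fell from 51.0 to 33.9 CPM, and Dlx2 fell as given above.

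Some markers of fibroblasts and of smooth muscle or pericytes were abundant in both lines. The 10 fibroblast markers summed to 4371 to 8256 CPM in control and 27521 to 39101 CPM in HD-het, 8 of them being members, while Lum and Thy1 were at or near 0. That sum was mostly Col1a1 and Fn1: the proteoglycan Dcn rose from 7.28 to 11.5 CPM, the factor Prrx1 fell from 88.1 to 61.3 CPM, and the factor Twist1 had 11.3, 12.9 and 12.7 CPM in control and 16.4, 13.5 and 10.6 CPM in HD-het without passing the test. The 7 smooth muscle and pericyte markers summed to 4021 to 4637 CPM in control and 8203 to 10094 CPM in HD-het, 6 being members, while Rgs5 was at or near 0. That sum was mostly Acta2, and the filament gene Des had 80.2, 71.8 and 74.7 CPM in control and 75.6, 69.7 and 66.2 CPM in HD-het without passing the test. These sums moved with the matrix and contractile lists, several of whose genes they share, and their part in those results was not tested. Of other brain cells, Cx3cr1 of microglia, Pecam1 and Cldn5 of endothelium, Aqp4 of astrocytes and Olig2 and Mog of oligodendrocytes had no count in any of the 6 libraries. Some other markers of such cells were above 0 in every library. Tmem119 of microglia rose from 5.41 to 21.1 CPM and Kdr of endothelium rose from 0.421 to 1.74 CPM. Gja1 of astrocytes had 296, 324 and 266 CPM in control and 204, 203 and 312 CPM in HD-het without passing the test. Without HD-het replicate 3 Gja1 was called lower (log2 -0.55, adjusted p = 0.00157, edgeR). It was also called lower with total counts in place of TMM scaling (log2 -0.36, adjusted p = 0.0326, edgeR). The sum over 8 oligodendrocyte lineage markers still went from 37.6 to 70.5 CPM in control and from 233 to 349 CPM in HD-het, nearly all of it Cspg4, the proteoglycan NG2 that pericytes also carry.

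Changes were also uneven along the genome. On chromosome 15, 307 of 494 genes fell and 57 rose, the median log2 fold change was -0.55, and all 12 blocks of 40 or more neighbouring genes had a median below 0, from -0.73 to -0.29. The same genes took 5.78% ± 0.0932 of footprints in control and 3.70% ± 0.0906 in HD-het (SD, n = 3 each), and in HD-homo cells the median of log2 ratios to control on that chromosome was 0.03. Chromosome 18 went the other way, with a median of 0.39 and all 8 blocks above 0, the highest of them the block that holds the protocadherin clusters (1.64). All blocks also lay above 0 on chromosomes 2 (23 blocks, median 0.22), 9 (17 blocks, median 0.23) and X (10 blocks, median 0.18). The 14 blocks of chromosome 10 all lay below 0 (median -0.29). The lowest blocks of all were on chromosome 13 (-0.98 and -0.90), around the main histone cluster.

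Several genes named above lie on chromosome 15, among them Rpl8, Eif3d, Eif3l, Srebf2, Lgals1, Atp5g2, Cox6c, Cct5, Myc and Gdnf. So do 4 of the 16 Hox genes counted above, while Col14a1 and Fbln1 lie there and rose. Without that chromosome, 74 of 75 ribosomal protein genes fell, 26 of 43 translation factors fell with a median of -0.30 in place of -0.38, and 18 of 24 cholesterol genes fell, so the lists kept their direction. Of the oxidative phosphorylation subunits 5 lie there, and 30 of the other 69 fell, with a median of -0.18 in place of -0.20. No such recount was made without chromosome 10, where Rps26 lies, or without any other chromosome. The number of copies of any chromosome was not measured here, and its part in these results was not tested.

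**Figure D5:**
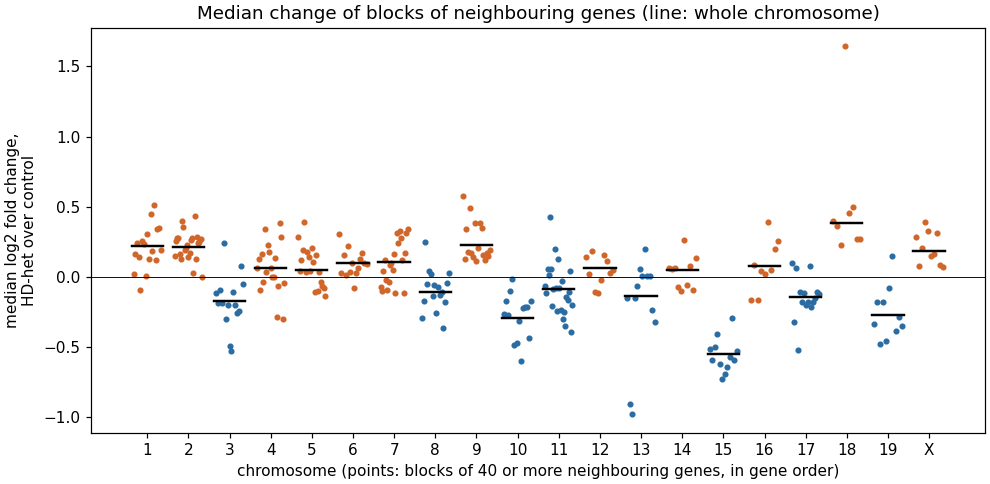
Median log2 fold change of HD-het over control in consecutive blocks of 40 or more genes (points) along each chromosome and over the whole chromosome (line), orange where the chromosome's median is above 0 and blue where it is below. Chromosome 15 lies at -0.55 with every block below 0, and chromosome 18 at 0.39 with every block above 0.

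A smaller set of genes was at the floor in 1 line. At 129 higher genes every control library held 3 counts or fewer, and at 51 lower genes every HD-het library did, so that only lower bounds of the change can be given, against 3 counts per library. Those named here fall outside the rule for named genes and were chosen after their values were seen. Adamts16, a metalloprotease of kidney and gonad, had 0, 0.0237 and 0.0750 CPM in control and 11.8, 12.6 and 31.0 CPM in HD-het, at least 186-fold higher, with HD-het libraries that differed widely. Nkain4, a partner of the sodium pump, was at least 91.1-fold higher and Ltbr, the lymphotoxin beta receptor, at least 76.5-fold higher. Pax2, a paired-box factor of midbrain, hindbrain and kidney, had 13.3, 14 and 14.1 CPM in control and 0.114, 0.0822 and 0.0944 CPM in HD-het, at least 123-fold lower, and Arsj, an arylsulfatase, was at least 57.9-fold lower.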

How the data were processed

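Ribosome-protected fragments were counted per gene symbol in 9 libraries, and the deposited counts, 1 column per library with replicates kept apart, were made by the authors before deposit. The submitters' processing notes name cutadapt, Bowtie 1.0.1 and the mouse build mm10; how reads were assigned to genes, with which annotation and whether by strand, is not given in the sources used here. Groups were taken from the labels. Genes with at least 10 counts in 3 or more of the 6 control and HD-het libraries were kept. Counts were scaled by TMM and fitted with edgeR 4.0.16 (quasi-likelihood test; limma 3.58.1, R 4.3.3) in 1 model of group means over all 9 libraries, since the 3 lines then share 1 estimate of spread, and p-values were adjusted by Benjamini-Hochberg over all 12438 genes, with 0.05 as the threshold. Standard errors are the log2 fold change over the root of the F statistic. CPM are counts per 1000000 of the TMM-scaled total. Totals of 22781306 to 41888701 counts limit low genes, and intervals cover the spread of libraries only. Replicates of control varied by 8.81% and those of HD-het by 10.7% (biological coefficient of variation), and the lowest correlation between replicates was 0.994.

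Named genes were the 30 largest rises and falls of at least 20 CPM in the higher line without overlap, the 10 largest gains and losses in CPM, the 3 largest rises and falls of each list at 5 CPM or more, Htt and cell type markers; further members of the lists were named as examples after their values were seen, and some genes are not reported here. The members and lists were chosen with earlier results of these data known. The 9 lists said to be chosen after values were seen, the CLEAR motif, the offsets for coding length and GC (loess, span 0.5) and the fit without chromosome 15 were added later. Rows under 2 names of a gene were kept. Of the 12438 genes, 12017 by symbol and 339 by a synonym (99.3%) matched a RefSeq gene of GRCm38.p6, the source of positions, promoter windows and sequences, and 4709 overlap another gene. Alternatives were DESeq2 1.42.0, other scalings and filters, a replicate block, a stricter threshold and each library left out. The fit was also run on simulated counts with known changes, and the outcome is not reported here.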

Additional observations from a re-analysis of the deposited data

How the results depend on the processing

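Called genes numbered 3879 higher and 3651 lower. With DESeq2 the numbers were 3923 and 3583, without composition factors 3543 and 3957, and with only the 6 control and HD-het libraries 4170 and 4003. With a change of at least 2-fold required as well, they were 1702 and 837, fewer by construction. Leaving out 1 library at a time gave 3346 to 4061 higher and 3246 to 3848 lower genes. Deviations of same-numbered control and HD-het libraries correlated at 0.037, 0.078 and -0.118, and not every library correlated best with its own number. With 3 libraries per line these values cannot tell whether same-numbered libraries were prepared together. A fit with the replicate number as a block gave 3763 higher and 3599 lower genes. Of 223 named genes past the threshold, 220 kept direction and call under every alternative at that threshold that tested them. Named genes such as Sfrp4 were not tested where 10 counts were required in each of the 6 libraries. The calls of Fst, Ppp1r1b and Rpl23 were lost as given above, that of Ppp1r1b also with the block (adjusted p = 0.0671, edgeR). Most named genes were picked for large changes in these same counts, so this stability does not carry over to the other calls. Twist1, not past the threshold, ranged from -0.0348 to 0.2635 (log2) with 1 library left out, reversing only without HD-het replicate 1. With the length and GC offsets Twist1 was called higher (log2 0.40, adjusted p = 0.0361, edgeR). Offsets for length and GC gave 3875 and 3806 genes. Depth limits the lowest genes: 3 counts, the floor, were 0.0712 to 0.142 CPM in the 6 libraries. Copies of near-identical genes and overlapping genes cannot be separated, and no mRNA level was used, so changes in mRNA and in ribosome density cannot be told apart.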

Other observations

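Several lists were divided or nearly still. Over all genes 31.2% rose and 29.4% fell, and a list near those shares does not stand out. Of 30 synaptic vesicle and SNARE genes 7 rose (4 without control replicate 1) and 7 fell. The synaptotagmin Syt11 went from 18.6 to 34.1 CPM and the postsynaptic scaffold Dlg4 from 18.1 to 8.45 CPM. Of 37 tubulins, motors and microtubule-binding proteins 9 rose and 10 fell. Dync1h1, the dynein heavy chain, rose from 141 to 306 CPM (log2 1.12, and 0.52 with the length and GC offsets), and Map1b, a microtubule-associated protein of growing axons, fell from 191 to 61.5 CPM. Of 29 genes of mTORC1 and its regulators 5 rose (3 to 6 over the alternatives at the same threshold) and 8 fell (6 to 11), the activator Rheb going from 141 to 194 CPM and the inhibitor Deptor from 9.59 to 2.73 CPM. Of 62 chromatin-modifying enzymes 19 rose and 18 fell, shares close to those of all genes. Dnmt3a, a de novo DNA methyltransferase, rose from 8.86 to 22.3 CPM, and Uhrf1, which recruits the maintenance methyltransferase, fell from 333 to 202 CPM.

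Imprinted genes, which are read from 1 parental copy, rose at 12 of 21 members and fell at 5. Mest rose from 1.57 to 5.72 CPM, Sgce from 18.1 to 66.2 CPM and the zinc finger factor Plagl1 from 0.792 to 5.01 CPM, whereas Peg10, a retrotransposon-derived gene, fell from 157 to 109 CPM. Sgce and Peg10 are neighbours in the annotation. Of the Armcx and Gprasp family, X-linked armadillo repeat proteins of mitochondria and receptor sorting, 7 of 9 members rose and none fell. With 10 counts required in each of the 6 libraries, 6 of 8 rose and none fell. Armcx3, which places mitochondria along axons, had 10.3, 9.73 and 9.68 CPM in the control libraries and 46.7, 48.2 and 44.2 CPM in the HD-het libraries. The lines did not overlap (log2 2.23, SE 0.11, adjusted p = 6.62e-08, edgeR). Of 30 p53 targets 6 rose and 11 fell: Gadd45a, a growth arrest gene, rose from 10.9 to 36.2 CPM, and Mdm2, the ubiquitin ligase of p53, fell from 105 to 56.6 CPM. Of 45 DNA repair genes 4 rose and 17 fell, with the base excision nuclease Apex1 going from 179 to 95.2 CPM. Of 17 intermediate filament genes 4 rose (2 when HD-het replicate 3 or control replicate 1 was left out) and 6 fell: Lmnb1, a nuclear lamin, rose from 197 to 287 CPM, and Lmna, the A-type lamin gene, fell from 1032 to 745 CPM.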
